A study of Medicago sativa with 12 samples.

Results

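Melatonin was compared with no melatonin in salt-treated leaves of alfalfa (Medicago sativa), a tetraploid forage legume, by RNA-seq. The compared libraries were the 3 from leaves of plants given NaCl and melatonin (SM) and the 3 from leaves of plants given NaCl alone (S), 6 of the 12 libraries in the series, and every gene model was included. The other 6 libraries came from leaves given melatonin without NaCl (M, 3 libraries) and from untreated leaves (CK, 3 libraries), and were used to estimate the spread and to set the melatonin difference under NaCl beside the one without it. All plants were seedlings of cultivar zhongmu 1# grown in vermiculite with Hoagland solution. NaCl was applied at 150 mM and melatonin at 50 µM. The libraries of a group were biological replicates of leaf samples according to the study's methods, which do not clearly state on which day of treatment the leaves for RNA were taken.

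Melatonin is an indoleamine that plants make from tryptophan, with serotonin N-acetyltransferase and a methyltransferase as the last steps, and it is known as a scavenger of reactive oxygen species and as a signal that acts on hormone and stress pathways. High NaCl in leaves brings osmotic stress first and ion toxicity later. It is known to slow photosynthesis, to raise reactive oxygen species, and to engage abscisic acid, ethylene and calcium signalling, and the SM against S comparison asks which of these transcripts differed when melatonin was present.

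The 6 libraries held 45862158 to 57192229 estimated counts, and 69452 to 74633 of the 164632 gene models had a count in each. Leaf identity was clear from the markers. The summed level of the mesophyll annotations (Rubisco small subunit, chlorophyll a/b-binding proteins, phosphoribulokinase, carbonic anhydrase) was 87950, 91000 and 98160 FPKM (fragments scaled by transcript length and by the size of the library) in SM leaves, against 85080, 80860 and 98030 FPKM in S leaves. Of 26 root and nodule annotations, 23 stayed below 1 FPKM in all 6 libraries, the leghemoglobins among them. The most abundant of the 26, early nodulin-12A, had 0.867, 1.22 and 12.9 FPKM in SM leaves, against 138, 5.34 and 50.5 FPKM in S leaves. S replicate 2 stood apart from its group: across annotations it correlated best with SM replicate 2 (r = 0.939 on log2(CPM + 1)) and less with the other S libraries (mean r = 0.918). S replicate 3 had the lowest mean correlation with its own group (0.914), so results that rest on either of these or on another single library are given without that library as well.

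The deposited table lists up to 4 chromosome copies of each of the 8 chromosomes, so a gene usually has several near-identical gene models, and how reads that fit more than 1 copy were assigned is not given in the sources used here. Counts were therefore also added up over all gene models that carry the same annotation (protein name and the species it was matched in), giving 28065 annotation sums, of which 15402 had a mean of at least 1 FPKM over the 12 libraries and were tested. By edgeR's quasi-likelihood test, 615 of these sums (3.99%) differed more than 2-fold in either direction (above 2 or below 0.5) with a p under 0.05 before adjustment, 284 higher in SM leaves (1.84%) and 331 lower (2.15%). An unadjusted p below 0.05 alone was reached by 1387 sums (9.01%), against the 5% that sums without any difference reach by construction. After Benjamini-Hochberg adjustment over all 15402 sums, edgeR left 0 below 0.05, with a lowest adjusted p of 0.0511. DESeq2 on the 6 libraries left 263, limma on log2(FPKM + 1) 1, and the edgeR fit left 1 without SM replicate 3 and 2 without S replicate 2. The median log2 fold change over all sums was -0.02. In 2219 of the sums (14.4%) the normalized counts of the SM libraries did not overlap with those of the S libraries.

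At the level of single gene models, 2428 of 50931 tested (4.77%) passed the fold and p thresholds, 1178 higher and 1250 lower in SM leaves, and 2933 (5.76%) had an unadjusted p below 0.05. In 440 of the 2428, 1 group had no library with more than 3 counts, as in 63 of the 615 sums. Only 9 gene models (0.0177%) had an edgeR adjusted p below 0.05, and they are described after the sums. The same count was 0 with the SM and S libraries alone, 0 with the replicate number as a block, 16 by limma and 1150 by DESeq2. With 3 libraries against 3, an exact permutation test of a single gene cannot give a two-sided p below 0.1. Every p given here therefore comes from a fit across all features, by edgeR unless another tool is named. The edgeR fit takes its spread from all 12 libraries.

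The 10 higher sums named here were those with the smallest p among sums past the thresholds with at least 5 FPKM, libraries that did not overlap and an annotation that names a function, a rule that 90 higher and 86 lower sums met. After Benjamini-Hochberg adjustment over all sums, the edgeR adjusted p of each named sum was 0.289, except for peamaclein (0.0511). Strigolactone esterase D14, the receptor that binds and cleaves the branching hormone strigolactone, had 76.8, 38.3 and 50.2 FPKM in SM leaves, against 5.93, 12.1 and 14.3 FPKM in S leaves. All SM libraries were well above all S libraries, with a log2 fold change of 2.33 ± 0.44 (SE). Two-component response regulator ARR5, a type-A regulator that cytokinin induces and that dampens cytokinin signalling in Arabidopsis, had 14.8, 3.77 and 11.5 FPKM in SM leaves, against 1.04, 1.16 and 1.37 FPKM in S leaves. SM replicate 2 was the lowest of its group and still above the S libraries, which were all near 1 FPKM, and the log2 fold change was 3.03 ± 0.58 (SE).

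Calmodulin-binding protein 60 D, of a plant family of calmodulin-binding transcription factors, had 72, 33.2 and 39.4 FPKM in SM leaves, against 16.6, 14 and 17.9 FPKM in S leaves. The groups did not overlap, SM replicate 1 was highest, and the log2 fold change was 1.55 ± 0.30 (SE). Its relative calmodulin-binding protein 60 G, which in Arabidopsis activates salicylic acid synthesis, had 16.8, 16.9 and 35.1 FPKM in SM leaves, against 7.83, 7.88 and 9.6 FPKM in S leaves. SM replicate 3 was about as far above the other SM libraries as these were above S, giving a log2 fold change of 1.43 ± 0.30 (SE), which fell short of the fold threshold without that library (0.98). The chaperone DnaJ-like protein, of the co-chaperones that hand unfolded proteins to Hsp70, was the most abundant of the 10, with 1184, 1037 and 886 FPKM in SM leaves, against 470.0, 517 and 503 FPKM in S leaves. Its SM libraries were all higher, at a log2 fold change of 1.03 ± 0.20 (SE), just above the fold threshold and just below it without SM replicate 1 (0.90) or S replicate 1 (0.99).

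Sucrose transport protein SUC8, of the proton-coupled carriers that move sucrose across the plasma membrane, had 52.8, 24.3 and 89.9 FPKM in SM leaves, against 11.1, 11.7 and 6.29 FPKM in S leaves. Its lowest SM library was above all S libraries, with a log2 fold change of 2.49 ± 0.52 (SE) and a difference in the same direction in all 3 of its gene models. WAT1-related protein At4g08290, of a membrane protein family named for a vacuolar auxin exporter of Arabidopsis, had 16.6, 35.8 and 18.4 FPKM in SM leaves, against 2.4, 2.68 and 1.32 FPKM in S leaves. No S library reached 3 FPKM, and the log2 fold change of 3.40 ± 0.68 (SE) was the largest among the 10. Protein DETOXIFICATION 45, a chloroplast member of the multidrug and toxic compound extrusion carriers, had 12.2, 12.9 and 11 FPKM in SM leaves, against 7.9, 7.22 and 4.96 FPKM in S leaves. The difference was small and even across libraries, at a log2 fold change of 1.14 ± 0.24 (SE), and its 4 tested gene models split evenly, 2 to either side.

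The smallest p among the higher sums belonged to the microtubule-associated protein AIR9, isoform X2, which marks the division plane in Arabidopsis, with 34.2, 49.9 and 36.5 FPKM in SM leaves, against 13.3, 11.7 and 14.2 FPKM in S leaves. The S libraries lay within a narrow band and every SM library was far above them, with a log2 fold change of 1.64 ± 0.25 (SE). The homeobox protein knotted-1-like 3, isoform X1, a class II KNOX transcription factor, had 126, 173 and 181 FPKM in SM leaves, against 76.9, 76.4 and 88.1 FPKM in S leaves. Its log2 fold change of 1.01 ± 0.20 (SE) was at the fold threshold, and below it without SM replicate 2 (0.95), SM replicate 3 (0.92) or S replicate 2 (0.98).

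Among the 10 lower sums, the largest difference of all named sums was in peamaclein, a small cysteine-rich peptide of the gibberellin-regulated (snakin) family, with 8.78, 6.72 and 6.14 FPKM in SM leaves, against 422, 72.4 and 256 FPKM in S leaves. The SM libraries were uniformly low and the S libraries spread widely, S replicate 2 being nearest to SM, and the log2 fold change was -5.11 ± 0.59 (SE), with the lowest Benjamini-Hochberg adjusted p of any sum (edgeR, 0.0511). Without S replicate 2 it was -5.55, and over all 6 fits that left out 1 library it ranged over -5.55 to -4.51. All 4 tested gene models of peamaclein were lower in SM leaves.

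Ethylene receptor 2, which represses ethylene responses until it binds the hormone, had 4.78, 9.19 and 4.38 FPKM in SM leaves, against 53.6, 32.3 and 17.4 FPKM in S leaves. Every SM library was below every S library, S replicate 3 being the nearest, with a log2 fold change of -2.52 ± 0.46 (SE) and all 4 tested gene models lower. The RING-type E3 ubiquitin ligase SDIR1, isoform X1, a positive factor in abscisic acid and salt responses of Arabidopsis, had 32.2, 26.3 and 33.2 FPKM in SM leaves, against 97.7, 63.3 and 77.9 FPKM in S leaves. The groups were clearly separate, at a log2 fold change of -1.40 ± 0.24 (SE), again with all 4 gene models lower. WAT1-related protein At4g28040, of the same family as the higher At4g08290, had 6.51, 12.6 and 10.01 FPKM in SM leaves, against 26.8, 46.5 and 24.4 FPKM in S leaves. Here the SM libraries were the lower ones, with a log2 fold change of -1.78 ± 0.40 (SE), so 2 members of 1 family differed in opposite directions.

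Protochlorophyllide reductase, which carries out the light-dependent step of chlorophyll synthesis, had 64.5, 173 and 209 FPKM in SM leaves, against 498, 455 and 483 FPKM in S leaves. The S libraries were close to each other, SM replicate 1 was far below the other SM libraries, and the log2 fold change was -1.72 ± 0.38 (SE), -1.38 without SM replicate 1. A further sum of this name, matched to chickpea instead of Medicago truncatula, had a log2 fold change of -1.44 ± 0.72 (SE, edgeR adjusted p = 0.6). Chloroplast glyceraldehyde-3-phosphate dehydrogenase B, a subunit of the reducing enzyme of the Calvin cycle, had 201, 146 and 203 FPKM in SM leaves, against 403, 266 and 499 FPKM in S leaves. The groups did not overlap, and the log2 fold change of -1.11 ± 0.25 (SE) fell short of the fold threshold without SM replicate 2 (-0.97) or S replicate 3 (-0.89). Aspartokinase 2, at the first step of the aspartate family of amino acids, had 1.35, 1.43 and 1.63 FPKM in SM leaves, against 24.9, 5.45 and 11 FPKM in S leaves. SM leaves were uniformly below 2 FPKM, with a log2 fold change of -3.23 ± 0.71 (SE) and all 4 gene models lower.

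Cytochrome b-c1 complex subunit 6, the hinge protein of mitochondrial complex III, had 8.77, 11.4 and 6.38 FPKM in SM leaves, against 31.8, 25.4 and 25.6 FPKM in S leaves. No SM library reached the lowest S library, and the log2 fold change was -1.53 ± 0.31 (SE). Replication factor A protein 1, which binds single-stranded DNA, had 0.735, 3.14 and 2.41 FPKM in SM leaves, against 36.7, 37.3 and 8.78 FPKM in S leaves. S replicate 3 was well below the other S libraries and above all SM libraries, with a log2 fold change of -3.79 ± 0.77 (SE). Only 3 of its 98 gene models were abundant enough to test, 2 lower and 1 higher. Expansin-like B1, of the proteins that loosen cell walls, had 11.9, 9.66 and 12.2 FPKM in SM leaves, against 60.2, 17 and 45.5 FPKM in S leaves. S replicate 2 was close to the SM libraries and the other S libraries were far above them, at a log2 fold change of -1.83 ± 0.41 (SE).

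**Figure D1:**
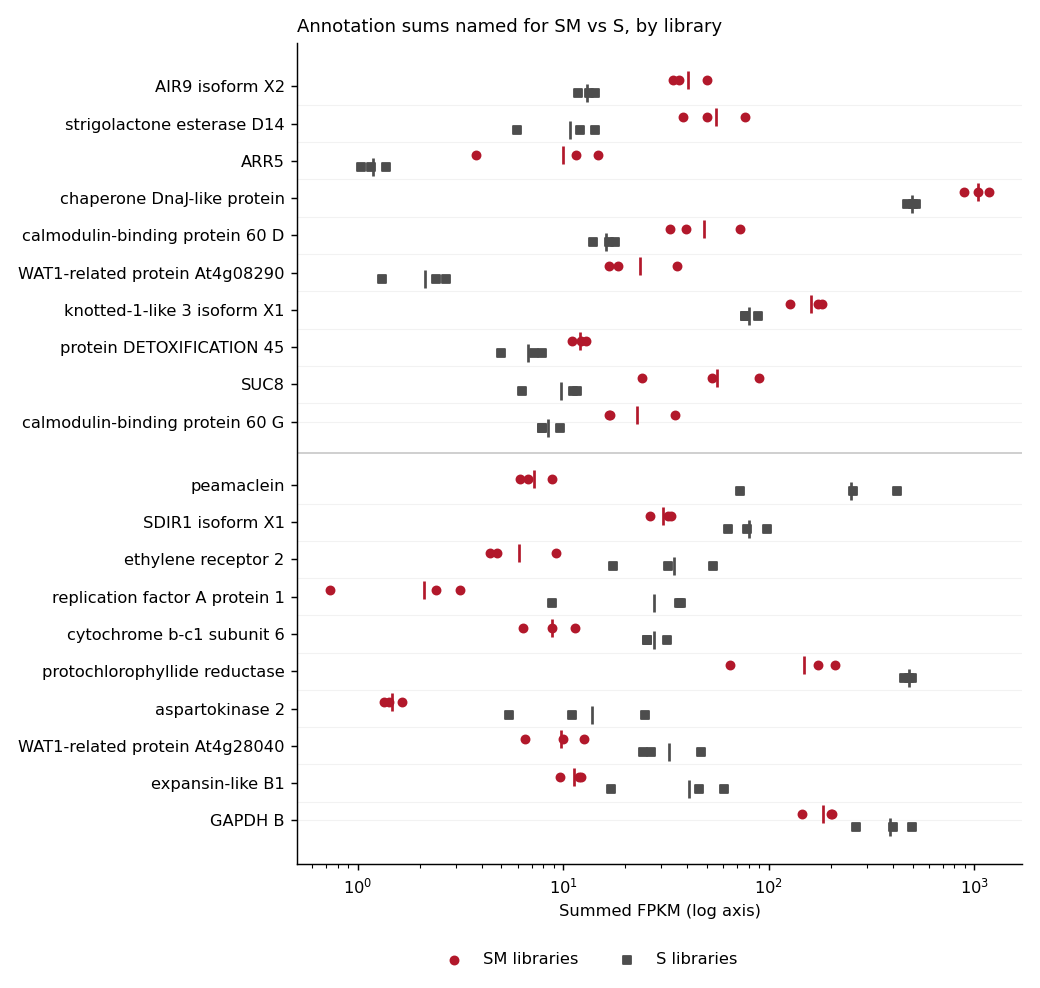
Summed FPKM (log axis) of the 10 higher sums (top) and the 10 lower sums (bottom) in each SM library (red circles) and each S library (grey squares), with the group mean as a bar. The SM and S points of a row do not overlap, by the rule that chose these sums, and peamaclein shows the widest gap, 6.14 to 8.78 FPKM in SM leaves and 72.4 to 422 FPKM in S leaves.

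The 9 single gene models that edgeR placed below an adjusted p of 0.05 were of another kind: in 7 of them 1 group had no count at all in its 3 libraries. Coordinates are those of the deposited table, whose genome build is not given in the sources used here. MS.gene023241, a putative proton-dependent oligopeptide transporter on chromosome copy 4.3 (17863055 to 17868706, minus strand), had 4.48, 9.76 and 11.3 FPKM in SM leaves, against 0, 0 and 0 FPKM in S leaves. It was detected in every SM library and in no S library, at least 316-fold higher against a floor of 3 counts per library (edgeR adjusted p = 0.00297). The sum of all 71 gene models with this annotation did not share the difference, with 71.1, 69.3 and 73.5 FPKM in SM leaves, against 84, 159.9 and 65 FPKM in S leaves. MS.gene021200, heavy metal-associated isoprenylated plant protein 39, on chromosome copy 6.1 (43010771 to 43011396, minus strand), had 1.62, 1.47 and 1.29 FPKM in SM leaves, against 0, 0 and 0 FPKM in S leaves. It was the other gene model found only in SM leaves of the 2 groups, at 27 to 36 counts a library and at least 10.5-fold higher (edgeR adjusted p = 0.0464). The sum of its annotation, over 28 gene models, had a log2 fold change of -0.16 ± 0.49 (SE, edgeR adjusted p = 0.957).

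The reverse pattern held for 5 gene models. MS.gene34383, a 1,2-dihydroxy-3-keto-5-methylthiopentene dioxygenase 1, an enzyme of methionine salvage, on chromosome copy 1.2 (76580528 to 76582110, minus strand), had 0, 0 and 0 FPKM in SM leaves, against 48.1, 63.5 and 82.7 FPKM in S leaves. It had no count in any SM library and 1825, 2162 and 3057 counts in the S libraries, at least 795-fold lower in SM leaves (edgeR adjusted p = 0.0062). It is 1 of 3 gene models with this annotation. Their sum, which includes MS.gene34383 itself, was 74.1, 91.9 and 67.8 FPKM in SM leaves, against 117, 219 and 202 FPKM in S leaves. Its log2 fold change was -1.24 ± 0.33 (SE, edgeR adjusted p = 0.354). The other models overlapped between groups. MS.gene006406 had 59, 87.7 and 43.4 FPKM in SM leaves, against 52.5, 153.9 and 99.3 FPKM in S leaves. MS.gene070955 had 15.1, 4.13 and 24.4 FPKM in SM leaves, against 16.6, 1.98 and 20.1 FPKM in S leaves. MS.gene94807, protein LOW PSII ACCUMULATION 1, which helps assemble photosystem II in Arabidopsis, on chromosome copy 1.4 (55678563 to 55680869, minus strand), had 0, 0 and 0 FPKM in SM leaves, against 5.2, 5.7 and 10.2 FPKM in S leaves. This was at least 153-fold lower in SM leaves (edgeR adjusted p = 0.0194), whereas the sum of its 8 gene models was nearly level, at a log2 fold change of -0.18 ± 0.17 (SE, edgeR adjusted p = 0.815).

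MS.gene73430, a lipid phosphate phosphatase 2, on chromosome copy 1.4 (83767785 to 83770344, minus strand), had 0, 0 and 0 FPKM in SM leaves, against 1.67, 1.72 and 1.13 FPKM in S leaves. It was low even where found and at least 31.8-fold lower in SM leaves (edgeR adjusted p = 0.0464). The sum of its annotation, over 13 gene models, was nearly level, at a log2 fold change of -0.03 ± 0.41 (SE, edgeR adjusted p = 0.992). The remaining pair carry no named function. MS.gene007457 on chromosome copy 7.3 (12161244 to 12164880, minus strand) had 0, 0 and 0 FPKM in SM leaves, against 5.33, 8.43 and 8.02 FPKM in S leaves, and was at least 244-fold lower in SM leaves. MS.gene32989 on chromosome copy 1.1 (5813436 to 5815534, minus strand) had 0, 0 and 0 FPKM in SM leaves, against 6.8, 5.56 and 5.05 FPKM in S leaves, and was at least 63.8-fold lower. Their edgeR adjusted p was 0.00304 in both cases, and the sums of their annotations, over 4 and 3 gene models, had log2 fold changes of -0.34 ± 0.23 (SE, edgeR adjusted p = 0.707) and -0.41 ± 0.59 (SE, edgeR adjusted p = 0.894).

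MS.gene044087 and MS.gene073960 were found in both groups. MS.gene044087, the most abundant peamaclein model, on chromosome copy 1.2 (4725080 to 4726016, minus strand), had 4.37, 2.85 and 2.93 FPKM in SM leaves, against 201, 37.9 and 149 FPKM in S leaves. It followed the peamaclein sum, with S replicate 2 the lowest S library, at a log2 fold change of -5.27 ± 0.64 (SE, edgeR adjusted p = 0.0464). MS.gene073960, annotated only as unknown, on chromosome copy 8.3 (9848324 to 9848932, plus strand), had 32.4, 29.6 and 60.9 FPKM in SM leaves, against 2.82, 1.56 and 1.69 FPKM in S leaves. Every SM library was far above every S library, and the log2 fold change was 4.29 ± 0.47 (SE, edgeR adjusted p = 0.0288). In M and CK leaves, all 9 gene models were detected in every library. The number of gene models past the adjusted threshold was 9 with all libraries, 17, 19 and 33 without SM replicate 1, 2 and 3, and 32, 14 and 21 without S replicate 1, 2 and 3. Of the 9, MS.gene023241, MS.gene007457, MS.gene32989, MS.gene34383 and MS.gene94807 stayed below 0.05 in all 6 of these fits, MS.gene073960 in 4, and MS.gene021200, MS.gene73430 and MS.gene044087 in 2.

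**Figure D2:**
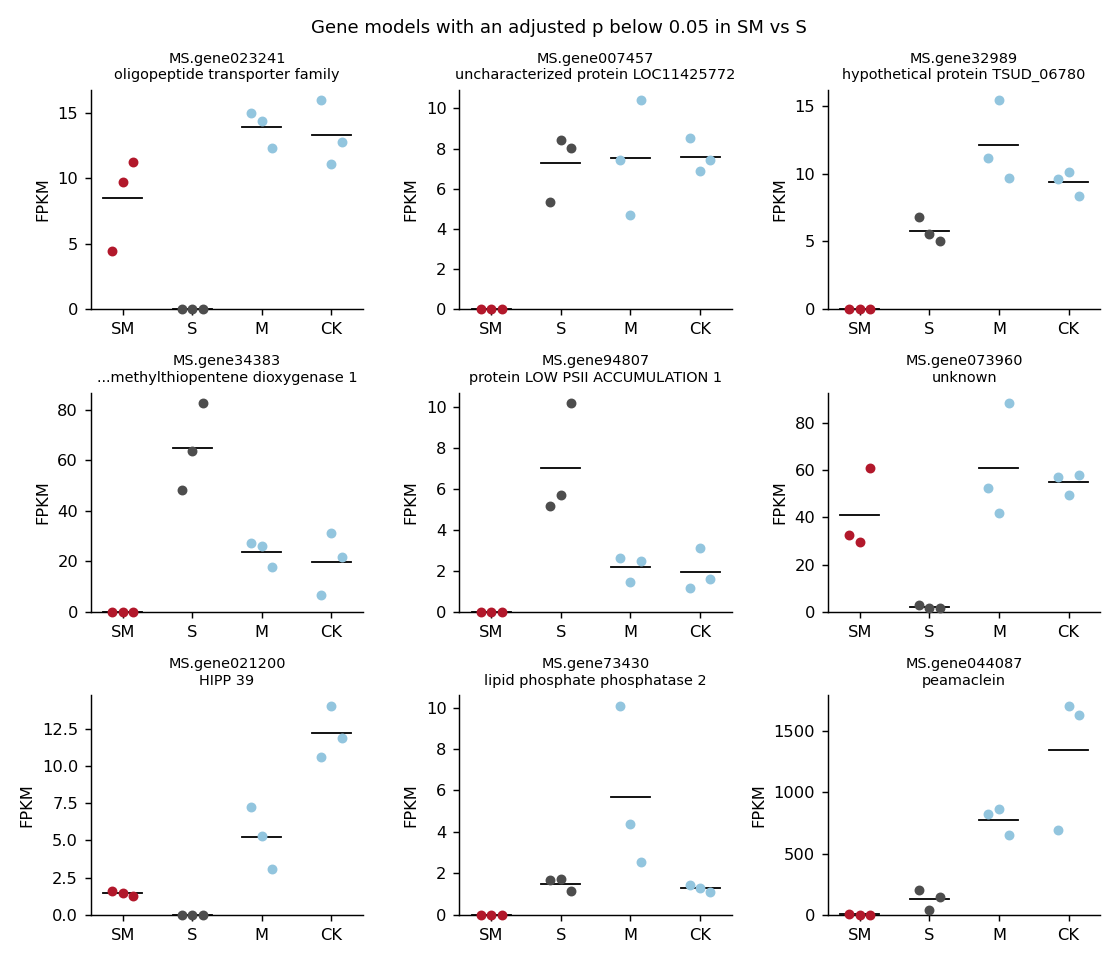
FPKM of the 9 gene models past the adjusted threshold in SM against S, 1 panel each, with 1 point per library and the group mean as a black line, in SM, S, M and CK leaves (linear axes from 0, the panel titled "...methylthiopentene dioxygenase 1" shortens the annotation of MS.gene34383). In 7 panels all 3 points of SM or of S lie at 0 while every other group was detected, such as MS.gene34383 at 48.1 to 82.7 FPKM in S leaves.

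At an unadjusted p below 0.05, edgeR found lower sums and 0 higher ones in the photosynthesis lists, and the counts depended on single libraries. Light-harvesting antenna proteins, which bind chlorophyll and pass excitation to the reaction centres, had 8 of 20 tested sums lower at an unadjusted p below 0.05 and 0 higher, beside 4.38% lower and 4.62% higher over all sums. These shares over all sums are the base for each list count of SM against S below. For this list of 20 sums the other values follow. The antenna sums had a median log2 fold change of -0.76, 18 of 20 were negative, and 5 passed the fold threshold. The light-harvesting complex I chlorophyll A/B-binding protein had 113, 68.7 and 92.7 FPKM in SM leaves, against 313, 94.5 and 463 FPKM in S leaves. The groups overlapped at S replicate 2, and the log2 fold change was -1.69 ± 0.47 (SE, edgeR adjusted p = 0.357). Putative chlorophyll A-B binding protein had 1542, 1286 and 1326 FPKM in SM leaves, against 2570, 2285 and 2291 FPKM in S leaves. All SM libraries were below all S libraries, at a log2 fold change of -0.81 ± 0.29 (SE, edgeR adjusted p = 0.473). Chlorophyll a-b binding protein 6 of photosystem I had 662, 490.4 and 506 FPKM in SM leaves, against 918, 1109 and 1577 FPKM in S leaves. It did not overlap either, at a log2 fold change of -1.15 ± 0.44 (SE, edgeR adjusted p = 0.505), but missed the thresholds without SM replicate 2, SM replicate 3 or S replicate 3 (-1.06, -1.08 and -0.90).

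The most abundant antenna sum went the other way. It is annotated only as chlorophyll a/b binding protein and had 59520, 57110 and 67600 FPKM in SM leaves, against 48080, 51450 and 47700 FPKM in S leaves. All SM libraries were slightly above all S libraries, but the log2 fold change of 0.30 ± 0.32 (SE, edgeR adjusted p = 0.841) did not reach an unadjusted p of 0.05. It supplied most of the antenna transcripts, and the summed level of the whole list was 84040, 87110 and 93530 FPKM in SM leaves, against 79450, 77220 and 85150 FPKM in S leaves. The totals of SM replicates 2 and 3 were above all S totals, and that of SM replicate 1 was below S replicate 3, while 18 of 20 sums had negative log2 fold changes. In leaves sampled whole, fewer cells of a type and less RNA per cell cannot be told apart.

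Photosystem subunits and electron transport proteins had 10 of 55 sums lower at an unadjusted p below 0.05 and 0 higher, with a median log2 fold change of -0.32. Of the 10, photosystem I chlorophyll a/b-binding protein 6 is also in the antenna list. Photosystem II 22 kDa protein (PsbS), the sensor for dissipating excess light as heat, had 139.5, 118 and 109 FPKM in SM leaves, against 441, 204 and 468 FPKM in S leaves. It was lower in every SM library and had the smallest p of the list, at a log2 fold change of -1.63 ± 0.39 (SE, edgeR adjusted p = 0.327). The cytochrome b6-f complex iron-sulfur subunit, the Rieske protein that passes electrons between the photosystems, had 679, 684 and 778 FPKM in SM leaves, against 1105, 844 and 1800 FPKM in S leaves. S replicate 3 was the highest library and S replicate 2 the nearest to SM, at a log2 fold change of -0.83 ± 0.26 (SE, edgeR adjusted p = 0.402) and -0.48 without S replicate 3. An oxygen-evolving enhancer protein had 13, 21.2 and 22.5 FPKM in SM leaves, against 51.4, 46.4 and 46.3 FPKM in S leaves. SM leaves were all below S leaves, at a log2 fold change of -1.37 ± 0.44 (SE, edgeR adjusted p = 0.411). The most abundant sum of the list, oxygen-evolving enhancer protein 1, of the complex that splits water, had 4412, 4634 and 3759 FPKM in SM leaves, against 4707, 4794 and 6906 FPKM in S leaves. Its difference did not reach an unadjusted p of 0.05, at a log2 fold change of -0.39 ± 0.27 (SE, edgeR adjusted p = 0.737).

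Calvin cycle enzymes had 4 of 20 sums lower and 0 higher, with a median log2 fold change of -0.46. Beside glyceraldehyde-3-phosphate dehydrogenase B, these were its partner subunit A, triosephosphate isomerase and Rubisco small chain 3A, at log2 fold changes of -0.88, -0.49 and -1.29. The most abundant sum, a Rubisco small chain, had 3184, 3049 and 3682 FPKM in SM leaves, against 4477, 2821 and 11530 FPKM in S leaves. S replicate 3 was far above all other libraries, the groups overlapped, and the log2 fold change of -0.95 ± 0.46 (SE, edgeR adjusted p = 0.581) shrank to -0.17 without it.

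Single libraries weighed on all of these counts. Without S replicate 3 the sums lower at an unadjusted p below 0.05 were 4 of the antenna list, 4 of the photosystem list and 1 of the Calvin cycle list, with medians of -0.60, -0.18 and -0.24. Without S replicate 2 they were 9, 13 and 6, with medians of -0.91, -0.47 and -0.56. Of the photosystem sums, 1 was higher without SM replicate 3 and 2 were without S replicate 2. Leaving out SM replicate 1, 2 or 3 left 4, 3 and 3 antenna sums, 7, 5 and 6 photosystem sums and 1, 1 and 2 Calvin cycle sums, and leaving out S replicate 1 left 4, 8 and 4. Medians of all 3 lists were negative in each of these fits.

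**Figure D3:**
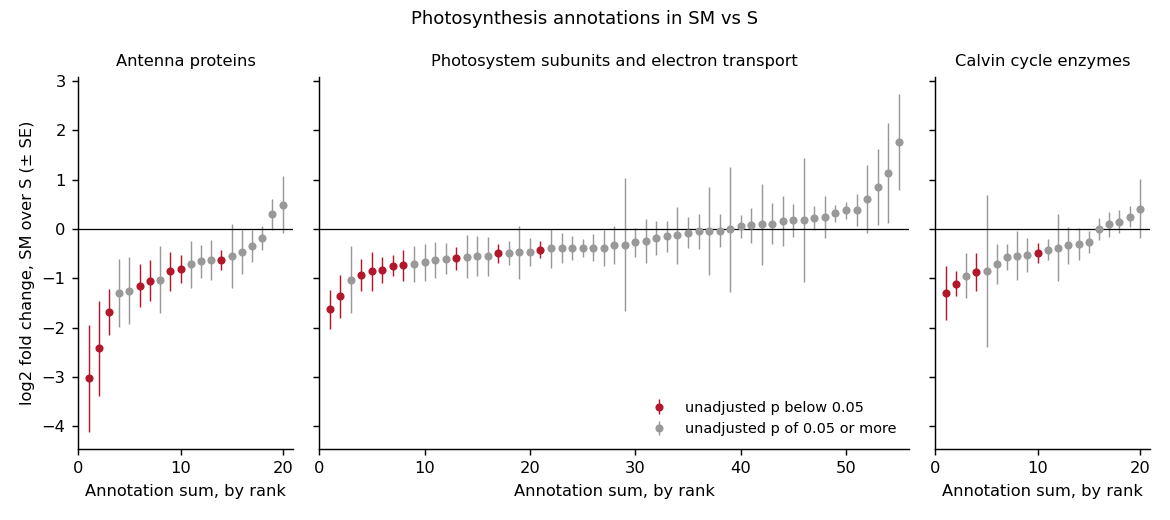
log2 fold change of SM over S leaves (± SE) for every tested sum of the antenna (20 sums), photosystem and electron transport (55) and Calvin cycle (20) lists, ordered within each list, with sums of an unadjusted p below 0.05 in red and the others in grey. Most points lie below 0, with medians of -0.76, -0.32 and -0.46, and no red point lies above it.

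Chlorophyll synthesis was mixed, with 3 of 23 sums higher and 2 lower at an unadjusted p below 0.05. Magnesium-chelatase subunit ChlD, isoform X1, which works several steps before protochlorophyllide reductase at the entry to the magnesium branch, had 19, 18.8 and 16.8 FPKM in SM leaves, against 11.3, 6.37 and 7.04 FPKM in S leaves. It was higher in all SM libraries, opposite to protochlorophyllide reductase, at a log2 fold change of 1.14 ± 0.25 (SE, edgeR adjusted p = 0.289), and 0.98 without S replicate 2. The count of higher sums was 1 without SM replicate 1, SM replicate 3 or S replicate 2. The most abundant sum, the magnesium-protoporphyrin IX monomethyl ester [oxidative] cyclase, had 428, 458 and 324 FPKM in SM leaves, against 664, 779.6 and 670.1 FPKM in S leaves. The groups did not overlap, but the log2 fold change of -0.82 ± 0.40 (SE, edgeR adjusted p = 0.588) did not reach an unadjusted p of 0.05.

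Class III peroxidases, secreted enzymes of the reactive oxygen network, use hydrogen peroxide on wall phenolics, and 6 of 21 tested sums were lower and 1 higher at an unadjusted p below 0.05, with a median log2 fold change of -0.54. Peroxidase 4 had 4.84, 8.75 and 11.8 FPKM in SM leaves, against 23.6, 13.2 and 35 FPKM in S leaves. All 10 of its tested gene models were lower in SM leaves and the groups did not overlap, at a log2 fold change of -1.53 ± 0.59 (SE, edgeR adjusted p = 0.505), but the thresholds were missed without SM replicate 1, SM replicate 2 or S replicate 3 (-1.28, -1.54 and -1.16). The most abundant, peroxidase 42, had 933, 1458 and 1125 FPKM in SM leaves, against 1434, 1340 and 3014 FPKM in S leaves. Its groups overlapped and the log2 fold change of -0.75 ± 0.45 (SE, edgeR adjusted p = 0.665) did not reach an unadjusted p of 0.05. The class III count rested on S replicate 3, without which 0 sums were lower and 2 higher. It was 2 lower without SM replicate 1 or 2, 5 without SM replicate 3, 4 without S replicate 1 and 6 without S replicate 2.

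Superoxide dismutases, which turn superoxide into hydrogen peroxide, had 0 of 8 sums at an unadjusted p below 0.05 in either direction by edgeR and by limma, and 1 higher and 2 lower by DESeq2 on the 6 libraries. Of the lower ones, superoxide dismutase [Cu-Zn] had 148, 161 and 163 FPKM in SM leaves, against 257, 279 and 228 FPKM in S leaves. No SM library reached the S range, at a log2 fold change of -0.69 ± 0.39 (SE, edgeR adjusted p = 0.65) and a DESeq2 adjusted p of 0.00387. It was 1 of the 263 sums that DESeq2 left below an adjusted p of 0.05, ethylene receptor 2 and ARR5 among them. The most abundant catalase, catalase-4, had 1366, 1077 and 1449 FPKM in SM leaves, against 949, 1130 and 1177 FPKM in S leaves. Its groups overlapped at SM replicate 2, and the log2 fold change was 0.23 ± 0.18 (SE, edgeR adjusted p = 0.763). Of 13 sums of catalases and the ascorbate-glutathione cycle, L-ascorbate peroxidase 3 alone had an unadjusted p below 0.05 by edgeR, with 122, 84 and 104 FPKM in SM leaves, against 118, 211 and 152 FPKM in S leaves. S replicate 1 lay within the SM range, and the log2 fold change was -0.61 ± 0.22 (SE, edgeR adjusted p = 0.482). Glutathione transferase GST 23, of the enzymes that attach glutathione to toxic compounds, had 30.1, 33.6 and 55.8 FPKM in SM leaves, against 253, 53.8 and 104 FPKM in S leaves. S replicate 1 was far above the other S libraries, and the log2 fold change of -1.81 ± 0.56 (SE, edgeR adjusted p = 0.401) was -1.01 and no longer past the threshold without it.

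Peroxiredoxins, thioredoxins and glutaredoxins, which pass electrons to oxidised protein thiols, had 5 of 67 sums higher and 9 lower at an unadjusted p below 0.05, beside 4.62% higher and 4.38% lower over all sums. The lower count was 5 without SM replicate 2 or S replicate 3. The higher ones included the TPR-thioredoxins TTL3 and TTL1, known in Arabidopsis for osmotic stress tolerance. TTL3 had 16, 13.2 and 16.2 FPKM in SM leaves, against 4.54, 6.37 and 5.13 FPKM in S leaves. The groups were well separated, at a log2 fold change of 1.48 ± 0.35 (SE, edgeR adjusted p = 0.299). TTL1, isoform X1, was separated likewise, at 1.26 ± 0.30 (SE, edgeR adjusted p = 0.327). Among the lower ones, peroxiredoxin-2E of the chloroplast had 137, 130.2 and 186 FPKM in SM leaves, against 201, 216 and 256 FPKM in S leaves. Again no library overlapped, at a log2 fold change of -0.60 ± 0.17 (SE, edgeR adjusted p = 0.362).

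Among hormone pathways, ethylene synthesis and signalling had 4 of 23 sums lower and 0 higher at an unadjusted p below 0.05, while the list's median log2 fold change was 0.15. The lower ones were ethylene receptor 2, the related receptor ethylene response sensor 1, and 2 sums annotated as homologs (4 and 1-like) of 1-aminocyclopropane-1-carboxylate oxidase, the enzyme that makes ethylene. Ethylene response sensor 1 had 3.84, 6.22 and 2.87 FPKM in SM leaves, against 35.9, 14 and 12.9 FPKM in S leaves. SM leaves were all lower, at a log2 fold change of -2.24 ± 0.89 (SE, edgeR adjusted p = 0.508), though the call was lost without S replicate 1 (-1.62), SM replicate 1 (-2.19) or SM replicate 3 (-2.02). The most abundant sum, 1-aminocyclopropane-1-carboxylate oxidase, had 704, 743 and 1188 FPKM in SM leaves, against 1085, 428 and 393 FPKM in S leaves. Its groups overlapped, at a log2 fold change of 0.45 ± 0.37 (SE, edgeR adjusted p = 0.783). The count of lower sums was 1 without S replicate 1, 2 without SM replicate 1, 3 without SM replicate 2, SM replicate 3 or S replicate 3, and 4 without S replicate 2.

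Auxin signalling had 2 of 45 sums lower and 0 higher, a lower share close to the 4.38% over all sums. Auxin-induced protein 10A5, of the small auxin-up RNA genes, had 7.59, 2.01 and 3.42 FPKM in SM leaves, against 19.9, 27.3 and 75.8 FPKM in S leaves. All 9 tested gene models were lower in SM leaves and the groups did not overlap, at a log2 fold change of -3.18 ± 0.75 (SE, edgeR adjusted p = 0.299) that passed the thresholds in all 6 fits without 1 library, and was -2.39 without S replicate 3 and -3.85 without SM replicate 1. Cytokinin signalling and turnover had 2 of 28 sums higher and 1 lower, beside 4.62% higher and 4.38% lower over all sums. The higher count was 1 without SM replicate 2 and 4 without SM replicate 3. Beside ARR5, cytokinin dehydrogenase 7, which degrades cytokinins, was higher with 69.6, 96.9 and 87.7 FPKM in SM leaves, against 49.8, 44 and 46.3 FPKM in S leaves. The groups did not overlap, at a log2 fold change of 0.81 ± 0.30 (SE, edgeR adjusted p = 0.482). A further 3 sums carry the ARR5 name as isoforms X1, X2 and X3, and none reached an unadjusted p of 0.05, at log2 fold changes of -0.89, -0.57 and 0.66.

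Jasmonate synthesis had 3 of 28 sums lower and 0 higher, all lipoxygenases, which oxidise the fatty acids from which jasmonates are made. Linoleate 13S-lipoxygenase 2-1, isoform X1, had 2.35, 2.04 and 6.71 FPKM in SM leaves, against 29.9, 6.77 and 19.1 FPKM in S leaves. SM leaves were lower throughout, SM replicate 3 only just, at a log2 fold change of -2.42 ± 0.82 (SE, edgeR adjusted p = 0.449), and -1.77, no longer past the thresholds, without S replicate 1. Linoleate 9S-lipoxygenase 1 had 1.5, 34.5 and 23.5 FPKM in SM leaves, against 2067, 14.7 and 25 FPKM in S leaves. S replicate 1 alone was high, and the log2 fold change of -5.17 ± 2.0 (SE, edgeR adjusted p = 0.505) was -0.05 without it. With S replicate 1 left out, 0 of the 28 sums were lower, and with SM replicate 3 left out 1 was.

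Abscisic acid receptors, protein phosphatases 2C and SnRK2 kinases, the core of abscisic acid signalling, had 4 of 66 sums higher and 2 lower, all of them phosphatases, a higher share near the 4.62% over all sums. Probable protein phosphatase 2C 2 had 204, 73.6 and 110.2 FPKM in SM leaves, against 60.8, 53.4 and 29.5 FPKM in S leaves. SM replicate 1 was highest and no library overlapped, at a log2 fold change of 1.41 ± 0.39 (SE, edgeR adjusted p = 0.357). Without that library it was 0.89, short of the fold threshold. Gibberellin metabolism and signalling had 0 of 21 sums at an unadjusted p below 0.05 by edgeR and by limma, and 1 by DESeq2. In the synthesis of melatonin itself, serotonin N-acetyltransferase 2 had 26.3, 22.4 and 31.8 FPKM in SM leaves, against 39.4, 33.7 and 48.4 FPKM in S leaves. SM leaves were all below S leaves, with all 4 gene models lower and a log2 fold change of -0.62 ± 0.24 (SE, edgeR adjusted p = 0.505), the only 1 of 6 tested sums of that pathway with an unadjusted p below 0.05. That p was kept in 3 of the 6 fits without 1 library and lost without SM replicate 1 (-0.63), SM replicate 2 (-0.50) or S replicate 3 (-0.47).

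Sodium, potassium and proton transport had 3 of 49 sums higher and 1 lower at an unadjusted p below 0.05, and 0 past the fold threshold. Over all sums, 4.62% were higher and 4.38% lower at that p. The higher count was 0 without SM replicate 2, 1 without S replicate 1 or S replicate 3 and 5 without S replicate 2. K(+) efflux antiporter 2 of the chloroplast envelope had 63.5, 67.2 and 69.4 FPKM in SM leaves, against 39, 56.5 and 30.6 FPKM in S leaves. It was higher in every SM library, at a log2 fold change of 0.63 ± 0.27 (SE, edgeR adjusted p = 0.529). V-type proton ATPase subunit G, of the pump that energises vacuolar sodium storage, had 151, 165 and 159.9 FPKM in SM leaves, against 225, 193 and 208 FPKM in S leaves. It was lower in every SM library, at -0.42 ± 0.14 (SE, edgeR adjusted p = 0.426). The most abundant sum, plasma membrane ATPase 4, the proton pump of the plasma membrane, differed little, at a log2 fold change of -0.15 ± 0.21 (SE, edgeR adjusted p = 0.893).

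Of 18 aquaporin sums, PIP2-7, a water channel of the plasma membrane, was higher with 39.9, 35.2 and 33.2 FPKM in SM leaves, against 10.9, 9.49 and 27.2 FPKM in S leaves. S replicate 3 was close to SM, and the log2 fold change of 1.16 ± 0.42 (SE, edgeR adjusted p = 0.482) passed the thresholds in 3 of the 6 fits without 1 library. Aquaporin NIP6-1, a boron channel in Arabidopsis, was lower with 0.786, 0.834 and 1.21 FPKM in SM leaves, against 4.49, 2.9 and 7.58 FPKM in S leaves. It was scarce in both groups and did not overlap, at a log2 fold change of -2.42 ± 0.48 (SE, edgeR adjusted p = 0.289). Dehydrin b, a protectant of dehydrating cells and the most abundant of 11 late embryogenesis abundant sums, had 4195, 2781 and 2662 FPKM in SM leaves, against 1560, 2575 and 1914 FPKM in S leaves. SM replicates 2 and 3 were only just above S replicate 2, and the log2 fold change was 0.66 ± 0.25 (SE, edgeR adjusted p = 0.488). It was 0.39 without SM replicate 1, and the unadjusted p by edgeR was below 0.05 in 3 of the 6 fits without 1 library. For proline, a compatible solute, the most abundant synthesis enzyme, delta-1-pyrroline-5-carboxylate synthase isoform X2, did not reach an unadjusted p of 0.05, at a log2 fold change of -0.19 ± 0.30 (SE, edgeR adjusted p = 0.907). Proline dehydrogenase, which breaks proline down, had 6.47, 11.5 and 5.47 FPKM in SM leaves, against 33.7, 7.92 and 28.5 FPKM in S leaves. S replicate 2 fell among the SM libraries, and the log2 fold change of -1.56 ± 0.60 (SE, edgeR adjusted p = 0.505) passed in 2 of the 6 fits without 1 library.

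In starch breakdown, 3 of 24 sums were lower and 0 higher, and without S replicate 3 there were 2 lower and 3 higher. A beta-amylase, which releases maltose from starch, had 40.7, 17.8 and 17.3 FPKM in SM leaves, against 74, 31.3 and 274 FPKM in S leaves. S replicate 3 was far above the rest, S replicate 2 was below SM replicate 1, and the log2 fold change of -2.34 ± 0.74 (SE, edgeR adjusted p = 0.408) was -1.07 and no longer past the thresholds without it. Starch synthesis sums went to both sides. The smallest p was in glucose-1-phosphate adenylyltransferase small subunit 1, at a log2 fold change of -0.89 ± 0.34 (SE, edgeR adjusted p = 0.5). The most abundant, granule-bound starch synthase 1, had -1.40 ± 0.70 (SE, edgeR adjusted p = 0.6), and -0.85 without S replicate 3. Among those with positive values, 1,4-alpha-glucan-branching enzyme 3 had 0.60 ± 0.38 (SE, edgeR adjusted p = 0.69). The sugar transporters had SUC8 higher and 1 SWEET transporter lower among 35 sums. The putative SWEET sugar transporter, of a family that lets sugars move down their gradient, had 0.423, 0.595 and 4.36 FPKM in SM leaves, against 4.04, 14.8 and 19.8 FPKM in S leaves. SM replicate 3 overlapped with S replicate 1, and the log2 fold change was -2.87 ± 0.99 (SE, edgeR adjusted p = 0.465), and -2.45, no longer past the thresholds, without SM replicate 2. Sucrose metabolism and hexose kinases had 1 of 35 sums higher and 0 lower.

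NBS-LRR resistance proteins, the intracellular receptors of plant immunity, had 9 of 63 sums higher and 0 lower at an unadjusted p below 0.05, 44 of 63 positive and a median log2 fold change of 0.30. Disease resistance protein RPM1, a sum over 128 gene models, had 71.1, 66.7 and 84.5 FPKM in SM leaves, against 51.5, 45.6 and 34.6 FPKM in S leaves. The groups did not overlap and 19 of its 20 tested gene models were higher, at a log2 fold change of 0.75 ± 0.18 (SE, edgeR adjusted p = 0.299). TMV resistance protein N, the most abundant, had 221, 191 and 218 FPKM in SM leaves, against 149.5, 149 and 141 FPKM in S leaves. It was higher in every SM library as well, at a log2 fold change of 0.57 ± 0.18 (SE, edgeR adjusted p = 0.406), with 31 of 51 tested gene models higher. Near-identical copies are common in this family, so the share of single models is uncertain. The count of higher sums was 6 without SM replicate 3, 12 without SM replicate 1 and between these without the others, and the 9 included 2 past the fold threshold.

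The AP2/ERF and B3 factor RAV1 had 154, 158 and 125 FPKM in SM leaves, against 74.7, 86.7 and 55.5 FPKM in S leaves. It was clearly higher in all SM libraries, at a log2 fold change of 0.98 ± 0.22 (SE, edgeR adjusted p = 0.289), 1 of 5 higher and 1 lower among 51 ERF and DREB sums, whose median was -0.25, a higher count that was 3 without SM replicate 1. NAC factors, several of which act in senescence and salt responses, had 5 of 27 sums higher and 2 lower. NAC transcription factor 56 had 5.93, 11.6 and 9.27 FPKM in SM leaves, against 2.73, 4.79 and 2.81 FPKM in S leaves. All SM libraries were above all S libraries, at a log2 fold change of 1.33 ± 0.39 (SE, edgeR adjusted p = 0.372). NAC domain-containing protein 104 went the other way, with 3.11, 4.31 and 3.3 FPKM in SM leaves, against 10.9, 8.05 and 13.4 FPKM in S leaves. It did not overlap either, at a log2 fold change of -1.66 ± 0.44 (SE, edgeR adjusted p = 0.354). WRKY factors had 5 of 41 sums higher and 0 lower, but 0 higher and 3 lower without SM replicate 3, the library that stood highest in WRKY 53. Probable WRKY transcription factor 53 had 20.3, 12.3 and 44 FPKM in SM leaves, against 8.67, 5.71 and 12.4 FPKM in S leaves. SM replicate 2 was just below S replicate 3, and the log2 fold change of 1.38 ± 0.51 (SE, edgeR adjusted p = 0.482) was 0.53 without SM replicate 3. The number of higher WRKY sums was 7 and 5 without SM replicate 1 and 2, and 2, 3 and 3 without S replicate 1, 2 and 3.

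Probable calcium-binding protein CML41, a calmodulin-like calcium sensor, had 38.7, 12.2 and 36.8 FPKM in SM leaves, against 7.93, 5.78 and 1.05 FPKM in S leaves. SM replicate 2 was the lowest SM library and above all S libraries, at a log2 fold change of 2.54 ± 0.78 (SE, edgeR adjusted p = 0.4), 1 of 3 higher and 0 lower among 31 calmodulin sums. That count was 1 without SM replicate 1 and 6 without SM replicate 2 or S replicate 1. Cyclic nucleotide-gated ion channel 4, a calcium-permeable channel, had 167, 161 and 195 FPKM in SM leaves, against 92.1, 150.4 and 94.7 FPKM in S leaves. S replicate 2 was close to SM, and the log2 fold change was 0.60 ± 0.22 (SE, edgeR adjusted p = 0.48), 1 of 2 higher and 0 lower among 15 sums of cyclic nucleotide-gated and glutamate receptor channels, beside 4.62% higher over all sums. Its unadjusted p was below 0.05 in 3 of the 6 fits without 1 library and not without SM replicate 3 (0.52), S replicate 1 (0.47) or S replicate 3 (0.49), and the log2 fold change was 0.88 without S replicate 2. In the MAP kinase cascade, with 4 of 30 sums higher and 1 lower, the sum spelled MEK map kinase kinsae in the table had 202, 189 and 176 FPKM in SM leaves, against 132, 133 and 114 FPKM in S leaves. Its libraries were tightly grouped, at a log2 fold change of 0.54 ± 0.14 (SE, edgeR adjusted p = 0.354), and this sum had the smallest p of the list. The higher count of this list was 2 without SM replicate 1, SM replicate 2 or S replicate 3.

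Cytosolic ribosomal proteins had 13 of 130 sums lower and 2 higher, with a median log2 fold change of -0.18. 60S ribosomal protein L38 had 278, 389 and 301 FPKM in SM leaves, against 564, 410.4 and 499.8 FPKM in S leaves. S replicate 2 was close to SM replicate 2, and the log2 fold change was -0.64 ± 0.17 (SE, edgeR adjusted p = 0.354). Without S replicate 3, 6 were lower. Plastid ribosomal proteins had 1 of 37 lower and 0 higher.

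**Figure D4:**
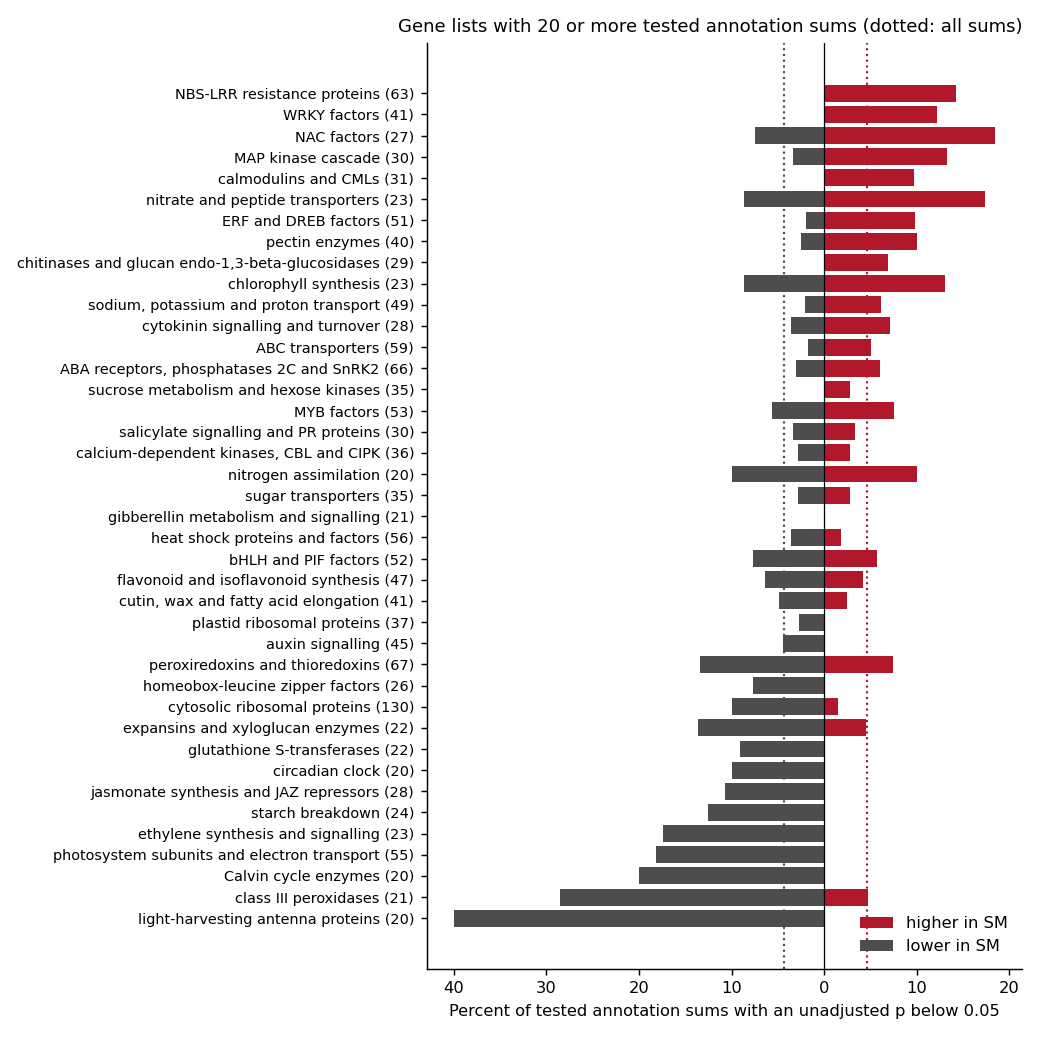
Percent of tested annotation sums with an unadjusted p below 0.05 that were higher (red, to the right) or lower (grey, to the left) in SM than in S leaves, for each gene list of at least 20 tested sums (number in brackets), with dotted lines at the percent over all 15402 sums (4.62 higher, 4.38 lower). Antenna proteins (8 of 20 lower) and class III peroxidases (6 of 21 lower) reach farthest to the left.

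The summed markers of other leaf cell types overlapped between groups. Of their single annotations, 1 for phloem and 1 for guard cells did not, beside 14.4% of all tested sums. Protein SIEVE ELEMENT OCCLUSION B, of the proteins that plug wounded sieve tubes in legumes, had 21.4, 28.5 and 75.9 FPKM in SM leaves, against 1713, 263 and 105 FPKM in S leaves. S replicate 1 was highest by far, SM replicate 3 came near S replicate 3, and the log2 fold change was -3.69 ± 0.87 (SE, edgeR adjusted p = 0.305), and -1.95 without S replicate 1, with all 13 tested of its 63 gene models lower. The other phloem annotations together had 244, 208 and 283 FPKM in SM leaves, against 284, 163 and 247 FPKM in S leaves, with overlapping groups. Guard cell annotations, 15 of which 5 were at 0 in all 6 libraries, summed to 99.2, 52.7 and 89.8 FPKM in SM leaves, against 41.6, 41.6 and 77.1 FPKM in S leaves. Among them, EPIDERMAL PATTERNING FACTOR-like protein 1, of the secreted peptides that act in stomatal patterning, had 39.6, 15 and 16.2 FPKM in SM leaves, against 2.26, 9.62 and 10.3 FPKM in S leaves. Every SM library was above every S library, SM replicate 1 was highest and S replicate 1 lowest, and the log2 fold change was 1.65 ± 0.73 (SE, edgeR adjusted p = 0.546), 1.02 without SM replicate 1 and 1.22 without S replicate 1, with all 4 gene models higher and an unadjusted p below 0.05 in 3 of the 6 fits without 1 library. The other 5 tested guard cell sums overlapped. Xylem annotations, 16 of which 12 stayed below 1 FPKM, summed to 5.53, 6.29 and 5.55 FPKM in SM leaves, against 6.7, 2.67 and 12.3 FPKM in S leaves. Early nodulin-12A, the abundant member of the root and nodule list, had 0.867, 1.22 and 12.9 FPKM in SM leaves, against 138, 5.34 and 50.5 FPKM in S leaves. Its difference did not reach an unadjusted p of 0.05 by edgeR (edgeR adjusted p = 0.58), but did by DESeq2 on the 6 libraries and by limma. The part of these markers in the other differences was not tested.

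The same melatonin difference could be read without NaCl, as M against CK, in libraries that SM and S do not share. In M against CK, 574 of the 15402 sums (3.73%) passed the fold and p thresholds. The difference between both melatonin differences had an unadjusted p below 0.05 in 1244 sums (8.08%) and an edgeR adjusted p below 0.05 in 0, DESeq2 and limma not having been run for it. All 20 named sums had an unadjusted p below 0.05 for that difference, which their choice by the SM against S test favours. Of the 10 higher in SM leaves, WAT1-related protein At4g08290 alone had an unadjusted p below 0.05 in M against CK, with 6.75, 13.8 and 6.18 FPKM in M leaves, against 9.0, 56.4 and 15.6 FPKM in CK leaves. There melatonin leaves were lower, at a log2 fold change of -1.67 ± 0.63 (SE, edgeR adjusted p = 0.593), although CK replicate 2 was far above the other CK libraries. None of the 10 lower sums had an unadjusted p below 0.05 in M against CK. Peamaclein had 1562, 2087 and 1110 FPKM in M leaves, against 1349, 2575 and 2482 FPKM in CK leaves. These levels were above those of all S and SM libraries and overlapped between M and CK.

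Among antenna sums, 7 of 20 had an unadjusted p below 0.05 for the difference, all with the SM against S value the lower one, as did 10 of 55 photosystem sums and 3 of 20 Calvin cycle sums, beside 4.71% of all sums. The SM against S values, already low in these lists, are part of this difference and favour these counts. In M against CK itself, 2, 4 and 3 sums of these lists were higher at an unadjusted p below 0.05 and 0 lower, beside 4.45% higher and 2.71% lower over all sums, with median log2 fold changes of 0.25, 0.12 and 0.14. Oxygen-evolving enhancer protein had 9.78, 15.4 and 10.2 FPKM in M leaves, against 5.92, 1.65 and 2.25 FPKM in CK leaves. Melatonin leaves were higher there and lower under NaCl, and the difference had an edgeR adjusted p of 0.322.

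**Figure D5:**
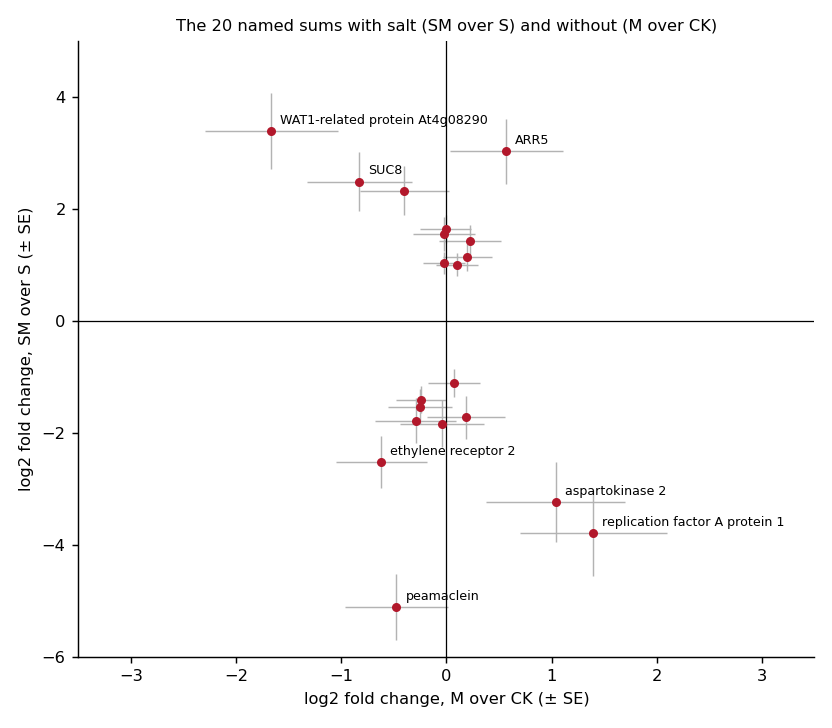
log2 fold change (± SE) of SM over S leaves (vertical axis) against that of M over CK leaves (horizontal axis) for the 20 named annotation sums, 1 point each. The M over CK values lie between -1.67 and 1.40 and mostly near 0, while the SM over S values reach from -5.11 to 3.40.

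Of the annotations that the study discusses by name for SM against S, some are not given above. The study tested single genes, whereas the values here are sums over gene models unless single models are named. Probable fructokinase-7, which phosphorylates fructose, had 28.4, 39.99 and 47.5 FPKM in SM leaves, against 36.8, 30.1 and 34 FPKM in S leaves. The groups overlapped, at a log2 fold change of 0.32 ± 0.29 (SE, edgeR adjusted p = 0.806). This sum covers 40 gene models, of which 9 were tested singly and 1 passed the thresholds, higher in SM leaves. The auxin-induced proteins AUX28 and IAA6, repressors of auxin responses, had log2 fold changes of -1.12 ± 0.76 (SE, edgeR adjusted p = 0.723) and -2.91 ± 1.56 (SE, edgeR adjusted p = 0.617). Transcription factor bHLH18 and the ethylene receptor EIN4 had -0.64 ± 0.39 (SE, edgeR adjusted p = 0.679) and 0.54 ± 0.46 (SE, edgeR adjusted p = 0.797). Of 7 tested bHLH18 models, 1 passed the thresholds, lower in SM leaves. No tested model of AUX28 or EIN4 did, and no IAA6 model was abundant enough to test. By edgeR, none of these 5 sums reached an unadjusted p of 0.05. By DESeq2 on the 6 libraries AUX28 and IAA6 did, both lower in SM leaves, and by limma IAA6 did. Of those added after their values were seen, beta-glucosidase 12, isoform X1, of the enzymes that release sugars from glucosides, had 5.82, 6.76 and 6.78 FPKM in SM leaves, against 15.6, 12.9 and 12.2 FPKM in S leaves. SM libraries were all lower, and the log2 fold change of -1.08 ± 0.25 (SE, edgeR adjusted p = 0.299) passed the thresholds in 5 of the 6 fits without 1 library, but not without S replicate 1 (-0.99). Beta-glucosidase 46 had 0.2, 5.12 and 1.01 FPKM in SM leaves, against 22.4, 2.29 and 0.557 FPKM in S leaves. S replicate 1 was far above all other libraries, and the log2 fold change of -2.08 ± 1.48 (SE, edgeR adjusted p = 0.736) did not reach an unadjusted p of 0.05. Nor did those of abscisic acid 8'-hydroxylase 1, which degrades abscisic acid, at -0.89 ± 0.55 (SE, edgeR adjusted p = 0.679), probable protein phosphatase 2C 51, at -0.49 ± 0.57 (SE, edgeR adjusted p = 0.859), or the salicylic acid factors TGA3, isoform X2, and TGA7, putative, at -0.35 ± 0.31 (SE, edgeR adjusted p = 0.809) and -0.25 ± 0.25 (SE, edgeR adjusted p = 0.83). For protein phosphatase 2C 51, the comparison in which the study names it as lower is M against CK. There its sum had a log2 fold change of -2.90 ± 0.63 (SE, edgeR adjusted p = 0.354).

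A set of 20 gene models had also been measured by qRT-PCR. The study drew them at random from its differentially expressed genes and does not name SM against S as their source. In S against CK, EIN3-binding F-box protein 1 (MS.gene015986) and scarecrow-like protein 9 (MS.gene99623) had edgeR adjusted p of 0.0294 and 0.038. In the RNA-seq counts of SM against S leaves, 18 of the 20 gene models were abundant enough to test. By edgeR 0 had an unadjusted p below 0.05, by DESeq2 on the 6 libraries 3 and by limma 2, with 6 log2 fold changes positive and 12 negative. The nearest were the light-signalling factor PIF4, isoform X1 (MS.gene019150), with 15.6, 27.2 and 37 FPKM in SM leaves, against 7.14, 20.4 and 7.04 FPKM in S leaves, and a beta-amylase (MS.gene027467), with 16.1, 4.81 and 4.11 FPKM in SM leaves, against 20.6, 3.52 and 89.2 FPKM in S leaves. Both overlapped between groups, at log2 fold changes of 1.16 ± 0.53 (SE, edgeR adjusted p = 0.87) and -2.22 ± 1.05 (SE, edgeR adjusted p = 0.883).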

How the data were processed

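Leaf RNA of 12 libraries was sequenced on an Illumina Novaseq. Per the methods and the submitters' processing notes, the authors trimmed reads with Cutadapt, aligned them with HISAT2 and assembled and quantified transcripts with StringTie. The genome build and the treatment of reads that match several copies are not given in the sources used here. The table deposited by the authors gives an estimated count and an FPKM value per gene model and library, and the group came from the GEO labels.

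Estimated counts were rounded and fitted over all 12 libraries with edgeR 4.0.16 (TMM, quasi-likelihood) in R 4.3.3, keeping features with a mean FPKM of at least 1, once per gene model and once per annotation sum, with the contrast SM minus S. The thresholds were a difference of more than 2-fold (above 2 or below 0.5) and a p under 0.05 before adjustment, and Benjamini-Hochberg adjustment ran over all features tested. Fits have 8 residual degrees of freedom. Fold bounds against a group with no count used a floor of 3 counts per library and cover counting error only. Alternatives used DESeq2 1.42.0, limma 3.58.1 on log2(FPKM + 1), RLE scaling, other filters, the 6 libraries alone, a replicate block and leaving out each library. The fits were tested on simulated data.

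The comparison, the 58 gene lists and the 6 marker lists were chosen with earlier results of these data known. Named sums were the 10 higher and the 10 lower by smallest p that passed the thresholds with at least 5 FPKM, libraries that did not overlap and an annotation naming a function. Also named were up to 10 gene models past the adjusted threshold of 0.05, the sum with the smallest p and the most abundant sum of a list, and genes the study names. Other list members given as examples were chosen after their values were seen.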

Additional observations from a re-analysis of the deposited data

Results flagged for a closer look

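Of the 9 gene models past the adjusted threshold in SM against S, 7 also had an edgeR adjusted p below 0.05 for the difference between the melatonin difference under NaCl and that without NaCl. Their choice by the SM against S test favours this, since that comparison is part of the difference. Each of the 7 had no count in any SM library or in any S library and was found in all M and CK libraries. On the log2 scale the fitted differences of differences were 12.82 for MS.gene023241, 9.22 for MS.gene021200, -12.48 for MS.gene007457, -10.89 for MS.gene32989, -14.42 for MS.gene34383, -11.97 for MS.gene94807 and -11.64 for MS.gene73430. Fitted values against a group at 0 depend on the prior count and are no measure of size. What sets these gene models apart was not tested, and how reads shared between chromosome copies were assigned is not given in the sources used here.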

How the results depend on the processing

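The 2428 gene models past the thresholds were 3770 by DESeq2, 4461 with no filter on low values and 1113 at a mean of at least 5 FPKM, and 2375 to 3148 when 1 library was left out. Gene models past the adjusted threshold of 0.05 numbered 9 in the main analysis, 1150 by DESeq2, 16 by limma, 0 with the SM and S libraries alone and 14 to 33 when 1 library was left out. The 615 annotation sums past the thresholds were 944 with no filter, 377 at 5 FPKM and 615 to 922 when 1 library was left out (922 without S replicate 2). Sums with an adjusted p below 0.05 were 0 in the main analysis, 263 by DESeq2, 1 each by limma, with RLE scaling, with no filter, at 5 FPKM and with isoform and species tags removed, and 0 to 2 when 1 library was left out, as were sums with an adjusted p below 0.05 for the difference between the differences with and without NaCl. Same-numbered libraries did not deviate together (correlations of -0.096, 0.041 and -0.043). With 3 libraries a group these values cannot settle whether same-numbered libraries were handled together. With a replicate block 1993 gene models and 532 sums passed the thresholds, with 0 gene models and 0 sums past the adjusted threshold. No called direction was reversed under any alternative run. Of 142 named or list sums under 1828 alternative settings, 1676 stayed on their side of the thresholds, 72 lost the call, 26 gained it and 54 changed sign without being called under either setting. With 3 libraries a group, differences smaller than the spread between libraries were not detectable, and low gene models carry few counts.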

Other observations

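Some sums for nitrogen use and the cell wall had an unadjusted p below 0.05 in SM against S leaves, and those given here were chosen after their values were seen. Nitrate reductase, which reduces nitrate to nitrite, had 0.886, 1.11 and 0.396 FPKM in SM leaves, against 5.96, 2.14 and 3.64 FPKM in S leaves. It was lower in every SM library, at a log2 fold change of -2.30 ± 0.76 (SE, edgeR adjusted p = 0.435). Counted in either direction, 4 of 20 sums for nitrogen assimilation had an unadjusted p below 0.05, this one included, beside 9.01% of all sums. High-affinity nitrate transporter 3.1, a partner protein of nitrate carriers, had 26.1, 30.3 and 36.1 FPKM in SM leaves, against 12.3, 21.4 and 16.8 FPKM in S leaves. It was higher in every SM library, at a log2 fold change of 0.84 ± 0.29 (SE, edgeR adjusted p = 0.456). Nitrate and peptide transporters had 4 of 23 sums higher and 2 lower, beside 4.62% higher and 4.38% lower over all sums.

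Pectin enzymes, which modify or cut wall pectin, had 4 of 40 sums higher and 1 lower at an unadjusted p below 0.05, beside 4.62% higher and 4.38% lower over all sums. A pectate lyase-like protein had 1.63, 1.0 and 4.74 FPKM in SM leaves, against 0.173, 0.539 and 0.187 FPKM in S leaves. It was scarce in S leaves and higher in every SM library, at a log2 fold change of 2.99 ± 0.82 (SE, edgeR adjusted p = 0.354). The sum annotated as pectinesterase and pectinesterase inhibitor had 4.66, 2.57 and 6.46 FPKM in SM leaves, against 1.14, 1.03 and 0.189 FPKM in S leaves. The groups did not overlap, at a log2 fold change of 2.48 ± 0.67 (SE, edgeR adjusted p = 0.354). Expansins and xyloglucan enzymes had 1 of 22 sums higher and 3 lower, beside 4.62% higher and 4.38% lower over all sums, expansin-like B1 among the lower ones. ABC transporter G family member 1, of the pumps that export lipids and other compounds, had 5.57, 6.28 and 4.88 FPKM in SM leaves, against 2.1, 1.4 and 3.01 FPKM in S leaves. Every SM library was above every S library, at a log2 fold change of 1.33 ± 0.30 (SE, edgeR adjusted p = 0.289).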
